A study of Homo sapiens with 6 samples.

Results

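The ectopic CENP-A peaks of chromosomes 4, 13 and 18 were described along the interior of their arms. A peak was taken as a member when its midpoint lay on 1 of these 3 chromosomes, outside a 5-Mb centromeric window, and at least 5 Mb from that window, from the chromosome start and from the highest position in any list. The window of each chromosome was the 5 Mb with the greatest length under CENP-A peaks of siNeg replicate 1. It spanned chr4:50255001-55255000, chr13:14756001-19756000 and chr18:16497001-21497000 on T2T-CHM13v2.0. The remaining stretches came to 312 Mb over 6 arms, or 13.3% of the autosomal sequence that met the same distances. They held 2349 of the 22596 peaks in the 4 CENP-A lists. The siNeg lists gave 41 of 1321 peaks in replicate 1 and 18 of 846 in replicate 3, and the siDNAJC9 lists gave 1304 of 11411 and 986 of 9018.

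The cells were hTERT-RPE1-Tet-GFP-CENP-A, a telomerase-immortalized retinal pigment epithelial line carrying a lentiviral, DOX-inducible GFP-CENP-A. Cells of both groups were transfected 48 h before 1 µg/ml DOX was given for 48 h, so GFP-CENP-A was induced in the siNeg controls as well as in the cells given the siRNA against DNAJC9. CENP-A was profiled by CUT&RUN, in which an antibody directs a nuclease to cut and release the DNA around its target. For each siRNA there were 2 CENP-A libraries, replicates 1 and 3, which the submitters describe as biological repeats, and 1 IgG library, replicate 2. The anti-CENP-A lists do not separate the tagged from the native protein, and the files hold no measure of DNAJC9 itself.

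CENP-A is the histone H3 variant that replaces H3 in centromeric nucleosomes and marks where the kinetochore is built. DNAJC9 is a J-domain chaperone of newly made H3–H4 dimers, and CENP-A has its own chaperone, HJURP, which delivers it to centromeres. CENP-A that is overexpressed can be deposited along chromosome arms, and peaks there are called ectopic.

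The name gene-poor held for all 3 chromosomes. Counting protein-coding gene names of RefSeq (GRCh38.p14) over the highest position in the lists, chromosome 13 had 2.98 names per Mb, chromosome 18 had 3.36 and chromosome 4 had 3.98. These were the 3 lowest values of the 22 autosomes. No gene of these chromosomes could be placed under a peak, because the lists use T2T-CHM13v2.0 and no genome or annotation of that build was used here. For the same reason no sequence is printed. Each list gives positions in whole kb, with no peak narrower than 5 kb. It holds no height or read count, so nothing grades one peak above another. The authors' methods give a range of total reads per sample, but the depth of each single library is unknown.

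Ectopic CENP-A peaks were more numerous, and covered more sequence, in both siDNAJC9 libraries than in either siNeg library. The number of peaks was 1304 and 986 in the siDNAJC9 libraries, against 41 and 18 in the siNeg libraries. The groups did not overlap. The means were 1145 ± 225 and 29.5 ± 16.3 peaks (SD, n = 2), a 38.8-fold difference that lay between 24.05-fold and 72.4-fold across the 4 pairs of libraries. Length under peaks was 9695 and 6834 kb with siDNAJC9 and 245 and 113 kb with siNeg, a 46.2-fold difference of the means. It corresponded to 3.11% and 2.19% of the sequence with siDNAJC9, against 0.0785% and 0.0362% with siNeg. Permuting the 4 libraries gave p = 0.333 for both quantities (exact, two-sided), the smallest p that 2 against 2 allows. Counting only peaks of 7 kb or more moved the log2 ratio of covered length from 5.53 to 6.40. The other autosomes showed similar differences of the means, 36.4-fold for number and 47.8-fold for length, also without overlap of the groups.

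Each chromosome showed this difference. On chromosome 4 the siDNAJC9 peaks covered 6157 and 4224 kb and the siNeg peaks 129 and 66 kb, which is 53.2-fold between the means. Chromosome 13 carried 2359 and 1751 kb against 81 and 32 kb, or 36.4-fold. Chromosome 18 carried 1179 and 859 kb against 35 and 15 kb, or 40.8-fold. No siNeg library overlapped a siDNAJC9 library on any of the 3, and the same held on every other autosome. The lowest siDNAJC9 density of any autosome was 6.63 kb under peaks per Mb (chromosome 19, replicate 3). The highest siNeg density was 2.86 (chromosome 10, replicate 1). On each of the 3 chromosomes the exact permutation p was 0.333, and whether the folds differ between them was not tested. On chromosome 13 the log2 ratio of covered length was 5.18, against 5.77 without replicate 1 and 8.58 with peaks of 7 kb or more only. The last value rests on 1 siNeg peak, chr13:46758001-46765000 of replicate 1, as replicate 3 had no peak there wider than 6 kb. On chromosome 18 the log2 ratio of covered length was 5.35, against 6.21 when peaks overlapping an IgG peak were left out, where chromosomes 4 and 13 had 5.69 and 5.13. That step left siNeg replicate 3 without a peak on chromosome 18, because both of its 2 peaks overlapped a siNeg IgG peak.

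The arms were not covered to the same extent. Under siDNAJC9, 4q was the densest arm in both libraries, with 39.6 and 27.3 kb under peaks per Mb in replicates 1 and 3. The 13q arm followed with 28.2 and 20.9 kb per Mb, and 4p had 26.9 and 18.1. The 18p arm had 22.9 and 17.5 kb per Mb and 18q 21.0 and 15.2. This order was the same in both libraries, but replicate 1 lay above replicate 3 on each of these 5 arms, and the gap between libraries within an arm was larger than the step from 13q to 4p. The short arm of chromosome 13, an acrocentric chromosome, held a single 5-kb peak in its 4.76 Mb, in replicate 3, and no peak in any of the other 5 lists. The siNeg libraries had at most 0.970 kb per Mb on any arm and no peak on 18p.

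**Figure D1:**
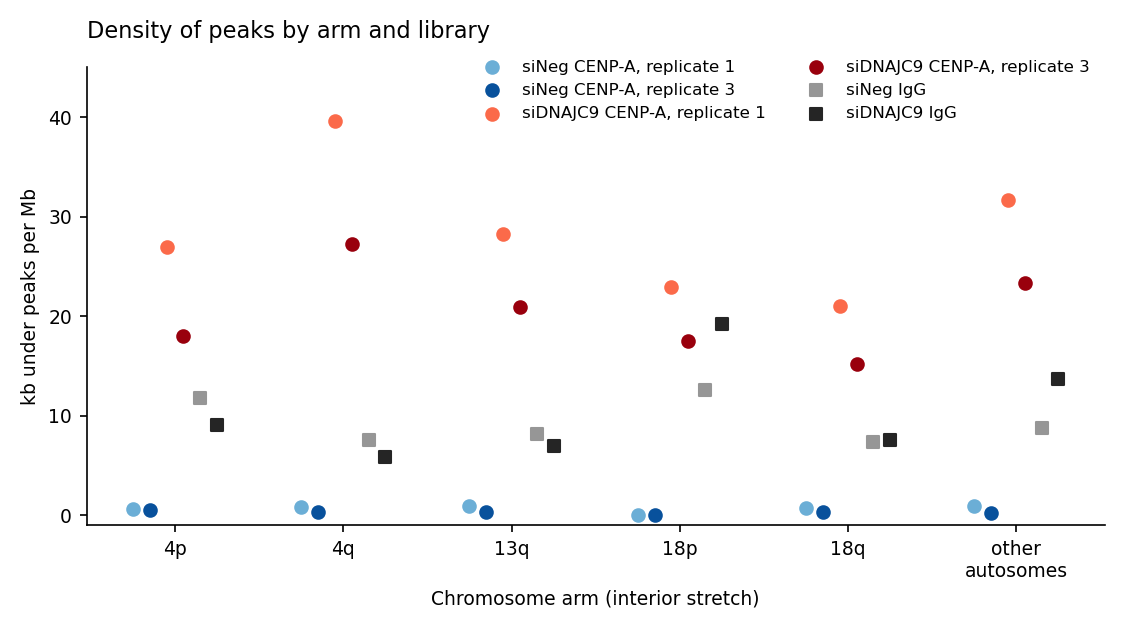
Length under peaks per Mb of interior arm sequence (vertical axis, kb per Mb) for each arm except 13p and for the other autosomes (horizontal axis), with 1 point per library, circles for CENP-A and squares for IgG. Both siDNAJC9 CENP-A libraries lie above both siNeg CENP-A libraries in every column shown. The highest arm is 4q at 39.6 and 27.3 kb per Mb, and on 18p the siDNAJC9 IgG library at 19.2 lies between the siDNAJC9 CENP-A libraries.

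The IgG controls bear on these numbers. In the same stretches the siNeg IgG library had 457 peaks over 2572 kb and the siDNAJC9 IgG library 381 peaks over 2191 kb. Both exceed the siNeg CENP-A lists and fall short of the siDNAJC9 CENP-A lists. The 18p arm was the exception, with 19.2 kb per Mb in siDNAJC9 IgG beside 22.9 and 17.5 in siDNAJC9 CENP-A. Few CENP-A peaks lay at IgG peaks. Of the siDNAJC9 CENP-A peaks, 39 of 1304 (2.99%, 95% Wilson interval 2.20 to 4.06) and 32 of 986 (3.25%, 2.31 to 4.55) overlapped a siDNAJC9 IgG peak by at least 1 bp. On 18p these were 4 of 21 and 2 of 17. Across 311 bins of 1 Mb, covered length in siDNAJC9 CENP-A had a Pearson r of -0.04 and -0.03 with siDNAJC9 IgG, a description over bins of 1 genome that share their mappable sequence. According to the file names, the lists were called against a further IgG library per siRNA. How far the calling itself sets the low overlap with IgG peaks was not tested, and no level by position alone was computed. The part of background in the CENP-A lists was not tested further.

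Relative to the rest of the genome, the 3 chromosomes together took close to an average share. Their siDNAJC9 density was 0.982 and 0.937 times that of the other autosomes in replicates 1 and 3. The siNeg values were 0.869 and 1.46. The mean log2 ratio was -0.06 ± 0.05 (SD, n = 2) with siDNAJC9 and 0.17 ± 0.53 with siNeg, a difference of -0.23 (exact two-sided permutation p = 1), and its sign turned to 0.18 with replicate 1 alone. The average hid different chromosomes. Chromosome 4 had 1.16 and 1.07 times the density of the other autosomes under siDNAJC9, chromosome 13 had 0.844 and 0.848, and chromosome 18 had 0.672 and 0.663. Among the 22 autosomes, counted from the densest, chromosome 4 ranked 3 and 7 in replicates 1 and 3, chromosome 13 ranked 16 and 15, and chromosome 18 ranked 17 in both. Against chromosomes 16, 17, 19 and 22, taken as a gene-rich set, the density was 1.99 and 1.97 times as high in siDNAJC9 CENP-A. The siNeg CENP-A libraries stood at 1.052 and 2.69 times that density, on both sides of the siDNAJC9 values. The siDNAJC9 IgG library was at 0.291 times the density of that set, and the siNeg IgG library at 0.992. The set leaves out chromosome 11, which had 9.63 gene names per Mb, above chromosomes 16 (8.89) and 22 (8.82). Chromosome 11 had 30.2 and 22.6 kb under siDNAJC9 peaks per Mb in replicates 1 and 3. Next by gene names, chromosome 1 (8.31 per Mb) had 31.8 and 23.7 kb per Mb, and chromosome 20 (8.13 per Mb) had 20.1 and 15.4. The 3 gene-poor chromosomes together had 31.1 and 21.9. A contrast of the size given for the set was thus not seen with chromosome 11 or 1. The contrast with other chromosomes added to the set was not computed.

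Peaks were spread along nearly the whole of the arms at 1-Mb scale. Of 311 bins, 247 had sequence under a peak in both siDNAJC9 libraries and 37 in neither. With siNeg, 6 bins were covered in both libraries and 260 in neither. The lower siDNAJC9 value exceeded the higher siNeg value in 242 bins (77.8%), where the same held for 71.3% of all 2474 bins of the genome, and in 0 bins did both siDNAJC9 values fall under both siNeg values. The share was 83.9% of bins on chromosome 4, 70.5% on chromosome 13 and 70.9% on chromosome 18. The 3 chromosomes are thus near the genome-wide figure, and their difference from it was not tested.

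**Figure D2:**
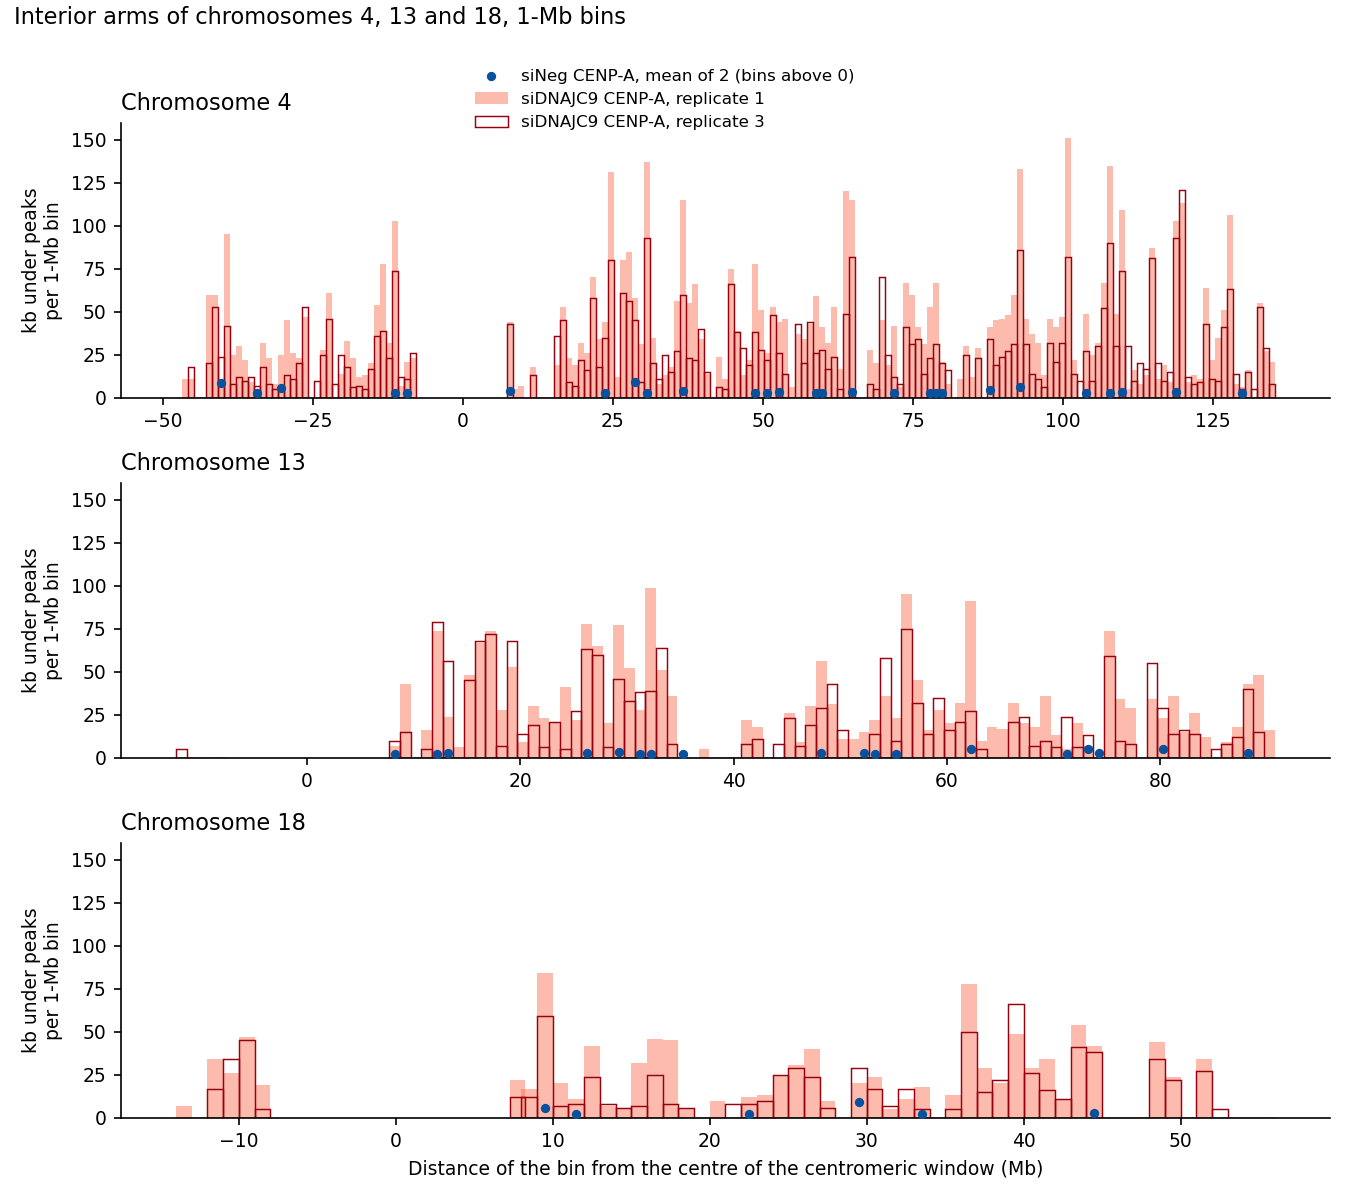
Length under CENP-A peaks in each 1-Mb bin (vertical axis, kb) against the distance of the bin from the centre of the centromeric window (horizontal axis, Mb, negative on the short arm). Filled bars are siDNAJC9 replicate 1, outlined bars siDNAJC9 replicate 3, and points the mean of both siNeg libraries where above 0. The siDNAJC9 bars reach 151 kb and the siNeg points stay at or below 9 kb, and the tall bars and the empty stretches fall in the same places in both siDNAJC9 libraries.

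In the limma test on log2(kb covered + 1) over all bins of the genome, 210 of the 276 bins of these chromosomes that could be tested were higher with siDNAJC9 at an adjusted p under 0.05, or 76.1%, beside 71.3% of the 2165 bins tested in the genome. By chromosome these were 123 of 155 bins on chromosome 4, 52 of 77 on chromosome 13 and 35 of 44 on chromosome 18. The median difference over the tested bins was 4.36, 3.99 and 4.07 on this log2 scale, and 4.16 over all bins tested in the genome. With limma 0 bins of the 3 chromosomes were lower, and 0 were lower at an unadjusted p under 0.05. After scaling the libraries to the same total covered length, 198 were higher and 5 lower. In the genome 5 bins, or 0.231%, were lower. When bins at 0 kb in all 4 lists were kept, 193 of 311 bins were higher, or 62.1%, beside 57.7% of the 2474 bins of the genome. In 225 of the 276 bins neither siNeg library had a peak, so these bins entered the test only through siDNAJC9 peaks. The siNeg values there have no spread, and the log2 difference depends on the added 1 kb. Of the 210 higher bins, 198 were among these and 12 had a siNeg peak. Another 39 bins with a siNeg peak were not called. Chromosome 18 from 33 to 34 Mb was called at 5 and 6 kb (adjusted p = 0.00160, limma). Chromosome 4 from 145 to 146 Mb, at 133 and 86 kb against 12 and 0 kb with siNeg, was not (adjusted p = 0.0786). The count of higher bins thus does not measure the size of the difference.

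The bins with the largest differences on the log2(kb + 1) scale were all on 4q and 13q. The first was the bin from 172 to 173 Mb of chromosome 4, with 113 and 121 kb in siDNAJC9 replicates 1 and 3 and 0 kb in both siNeg libraries (difference 6.88 ± 0.12 SE on the log2(kb + 1) scale, limma adjusted p = 0.000812). It held 15 and 18 separate peaks and 5 kb of IgG peaks under each siRNA. It was also the only one of the first 3 in which replicate 3 was the higher library. The bin from 153 to 154 Mb had 151 and 82 kb, and the bin from 77 to 78 Mb had 131 and 80 kb, again against 0 kb with siNeg. On chromosome 13 the bin from 73 to 74 Mb had 95 and 75 kb, and that from 34 to 35 Mb had 74 and 72 kb. The other 5 of the first 10 lay on 4q, starting at 79, 97, 116, 167 and 180 Mb, with siDNAJC9 means from 70.5 to 84.5 kb. All 10 were at 0 kb in both siNeg libraries, and their adjusted p ranged from 0.000812 to 0.00420 (limma). On this scale a single siNeg peak lowers the rank of a bin, so 0 kb with siNeg comes with the ranking. The 4q bin from 83 to 84 Mb, with 137 and 93 kb against 5 and 0 kb with siNeg, fell outside the 10. So did that from 145 to 146 Mb, with 133 and 86 kb against 12 and 0 kb.

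Each arm had its own densest bin. On 4p this was the bin from 41 to 42 Mb, with 103 and 74 kb in the siDNAJC9 libraries and 6 and 0 kb in the siNeg libraries. On 18q the bin from 28 to 29 Mb had 84 and 59 kb, against 11 and 0 kb with siNeg. On 18p the bin from 9 to 10 Mb had 47 and 45 kb, the smallest gap between libraries of the 5 arms that had peaks in both, and it also carried 21 kb of siDNAJC9 IgG peaks. The siDNAJC9 libraries were above both siNeg libraries in each of these bins. The bins were chosen for their siDNAJC9 length, so this comes with the choice.

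The peaks were clustered rather than evenly spaced. The median gap from a peak to the next of the same list was 97 kb in siDNAJC9 replicate 1 and 120 kb in replicate 3, whereas the mean gaps were 225 and 293 kb. Gaps of at most 50 kb made up 36.3% and 31.9% of all gaps, and 47 and 64 gaps exceeded 1 Mb. The coefficient of variation of the gaps was 1.76 and 1.72, where positions scattered at random would give about 1. With siNeg the median gaps were 5094 and 8738 kb, and no gap was as short as 100 kb, so with 41 and 18 peaks their arrangement at short range cannot be compared.

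**Figure D3:**
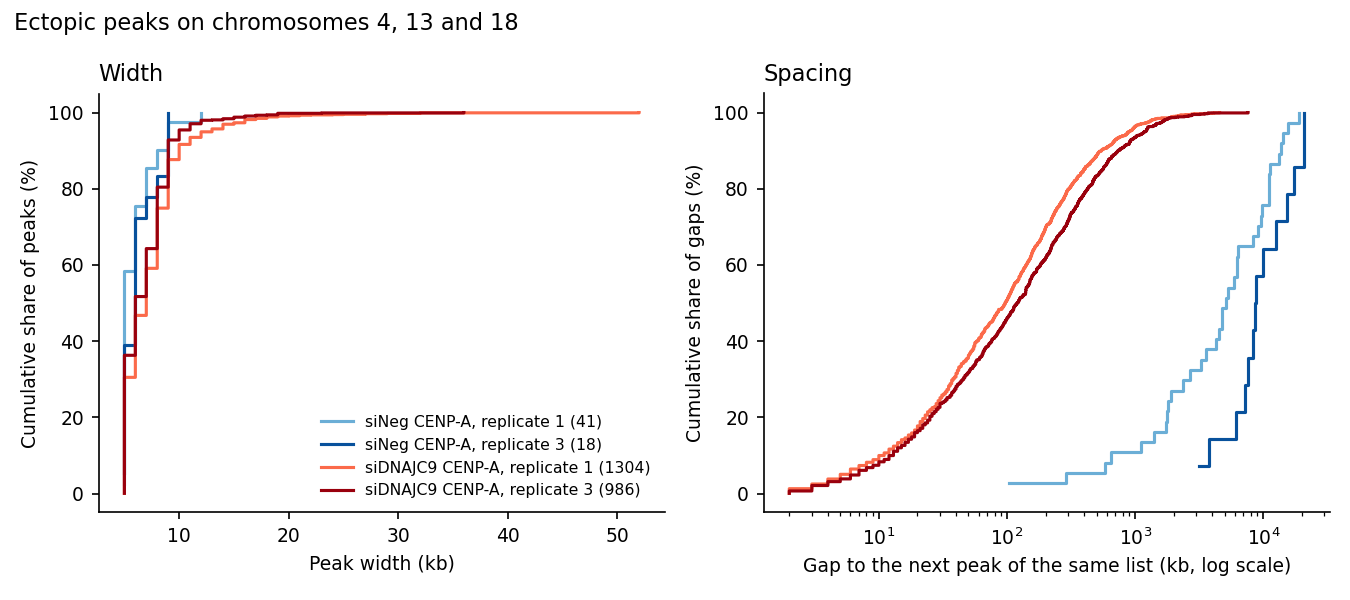
Cumulative share of peaks by width (left, kb) and of gaps by distance to the next peak of the same list (right, kb on a log axis) for the 4 CENP-A libraries, with the number of peaks per library in the legend. The siDNAJC9 curves cross 50% near 97 and 120 kb of gap and the siNeg curves at 5094 and 8738 kb, while the width curves start at 5 kb in all 4 and reach 52 and 36 kb only with siDNAJC9.

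Counts per 1-Mb bin showed the same unevenness. The mean was 4.17 and 3.16 peaks per bin with siDNAJC9, with up to 17 and 18 peaks in 1 bin and none in 47 and 54 bins. The variance was 2.97 and 2.78 times the mean, where scattered points would give 1. In the other autosomes this ratio was 3.72 and 3.22. It was 0.969 and 0.945 in the siNeg lists, 1.11 in siNeg IgG and 1.83 in siDNAJC9 IgG, but these lists are shorter and the ratio depends on the number of peaks. Joining peaks with gaps of at most 100 kb left 643 and 534 groups. Single peaks made up 28.0% and 31.5% of the siDNAJC9 peaks, and groups of 5 or more held 27.9% and 20.5%.

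The largest groups lay on 4q. In replicate 1 the first had 16 peaks over 559 kb at chr4:83247001-83806000, and replicate 3 had a group of 10 peaks inside it at chr4:83453001-83748000. In replicate 3 the first had 12 peaks over 289 kb at chr4:172457001-172746000, and a second one with 10 peaks stood beside it at chr4:171788001-172274000. Replicate 1 had 9 and 13 peaks in these spans, though neither was among its 5 largest groups. A group of 13 peaks at chr4:79772001-80127000 in replicate 1 and a group of 8 at chr4:79930001-80127000 in replicate 3 ended at the same kb. The other 3 of the 5 largest groups of replicate 1 had no counterpart among the 5 largest of replicate 3. They had 13 peaks at chr4:116663001-117072000, 12 at chr4:153028001-153786000 and 13 at chr4:159818001-160353000, and these spans held 6, 7 and 10 peaks of replicate 3.

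The spacing differed in degree between the chromosomes. Median gaps were 81.5 and 119 kb on chromosome 4, 113.5 and 109 kb on chromosome 13 and 127 and 147 kb on chromosome 18, in replicates 1 and 3. Gaps of at most 10 kb made up 11.98% and 9.78% on chromosome 4, 7.36% and 6.10% on chromosome 13 and 5.52% and 6.11% on chromosome 18. Chromosome 4 had the larger share of such close neighbours in both libraries, and it also had the most peaks per Mb, 4.82 and 3.59, against 3.70 and 2.81 on chromosome 13 and 2.97 and 2.398 on chromosome 18. The variance over the mean of peaks per bin was 3.02 and 2.60, 2.63 and 3.13, and 2.44 and 2.48 on chromosomes 4, 13 and 18, an order that the libraries did not share. Bins without a peak made up 10.7% and 11.9% of chromosome 4, 18.2% and 23.9% of chromosome 13, and 23.6% of chromosome 18 in both libraries.

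Neighbouring bins resembled each other weakly, and bins further apart less so. The covered length of a bin and that of the next bin had a Pearson r of 0.22 in replicate 1 and 0.19 in replicate 3 over 305 pairs of bins, and at a distance of 2 Mb r was 0.07 and 0.02. From 3 to 20 Mb r stayed at or below 0.118 in replicate 1 and 0.135 in replicate 3, both at 14 Mb, and at 9 Mb it was 0.10 and 0.12. Only 2 runs of 3 successive bins stood above the upper autosomal quartile in both libraries (45.8 kb per bin in replicate 1 and 33 kb in replicate 3). They were on chromosome 4 from 79 to 82 Mb, with means of 74.3 and 54 kb per bin, and on chromosome 13 from 32 to 35 Mb, with 63 and 61.7 kb per bin. On a broader scale with each arm cut into 3 equal parts, the centromere-proximal part of 13q was denser, at 39.4 and 31.6 kb per Mb in replicates 1 and 3, than the middle part, at 23.1 and 16.7, and the distal part, at 22.3 and 14.4. Differences of this size were not seen along 4q, where the 3 parts had 38.8, 37.8 and 42.3 kb per Mb in replicate 1 and 26.5, 23.8 and 31.6 in replicate 3.

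Long stretches were free of ectopic peaks in both siDNAJC9 libraries. The longest on 4q was chr4:64961001-68217000, 3256 kb, and on 13q chr13:54761001-58892000, 4131 kb. On 18q it was chr18:71573001-75176000, 3603 kb. On 4p and 18p the longest were 2294 and 1981 kb, and on 13p 4234 kb of the 4.76 Mb examined. None of the 6 stretches had a siNeg CENP-A peak. Those on 4p, 4q, 13q, 18p and 18q did have siNeg IgG peaks, between 2 and 8 each, while the stretch on 13p had no peak of any list. In siDNAJC9 IgG the stretches on 4p, 4q, 13q, 18p and 18q had 9, 0, 2, 6 and 5 peaks. The bins from 52 to 58 Mb of chromosome 13 formed the longest run at or under the lower autosomal quartile, with 0.833 and 0 kb per bin. The IgG lists had 11.3 kb per bin there with siNeg and 4.33 with siDNAJC9.

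Ectopic peaks were short, with a longer tail under siDNAJC9. The median width was 7 and 6 kb with siDNAJC9 and 5 and 6 kb with siNeg, a difference of 1 kb (exact two-sided permutation p = 0.667). Without replicate 1 the difference was 0 kb, and among peaks of 7 kb or more its sign turned, to -0.5 kb. The groups overlapped in this measure. The mean width was 7.18 ± 0.36 kb against 6.13 ± 0.21 kb (SD, n = 2, exact permutation p = 0.333). Peaks at the 5-kb minimum made up 30.5% and 36.3% of the siDNAJC9 lists, and 58.5% and 38.9% of the siNeg lists. The siNeg lists held only 41 and 18 peaks, and the number of wide peaks and the longest peak of a list depend on its length. Peaks of 10 kb or more numbered 161 and 71 with siDNAJC9 (12.3% and 7.20%) and 1 and 0 with siNeg (2.44% and 0%). These wide peaks held 22.3% and 13.1% of the siDNAJC9 covered length. On chromosome 4 they were 13.5% and 7.27% of the siDNAJC9 peaks, on chromosome 13 9.48% and 8.47%, and on chromosome 18 12.1% and 4.51%, so the 3 chromosomes had no common order across libraries. IgG peaks were narrower, with a median of 5 kb and at most 10 and 14 kb under siNeg and siDNAJC9.

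The 2 siDNAJC9 libraries agreed well at 1-Mb scale and less at the level of single peaks. Covered length per bin had a Pearson r of 0.86 and a Spearman rho of 0.84 over 311 bins. Pearson r was 0.88 on chromosome 4, 0.79 on chromosome 13 and 0.86 on chromosome 18, values given as a description because bins of 1 library share its depth. Replicate 1 was the higher library in 205 bins, replicate 3 in 66, and both were equal in 40. Between the siNeg libraries r was 0.22, with 260 of the bins at 0 kb in both.

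**Figure D4:**
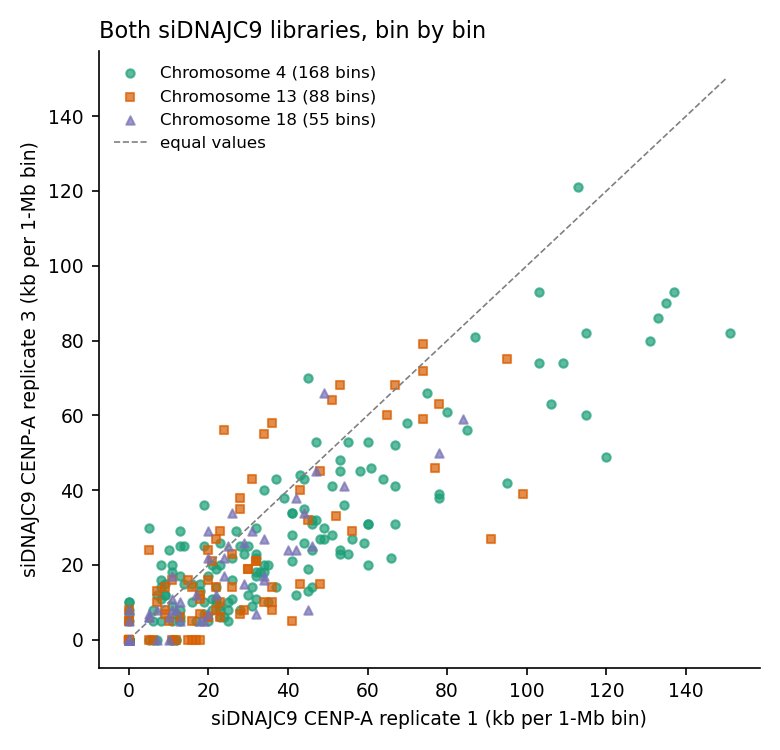
Length under siDNAJC9 CENP-A peaks in replicate 3 (vertical axis, kb per 1-Mb bin) against replicate 1 (horizontal axis), with 1 point per bin and the chromosome shown by colour and shape. The dashed line marks equal values, 205 of the 311 points lie below it, and the highest point of replicate 3 is the bin with 113 and 121 kb on chromosome 4.

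Peak by peak, 512 of 1304 peaks of replicate 1 (39.3%, 95% Wilson interval 36.6 to 41.9) overlapped a peak of replicate 3, and 516 of 986 peaks of replicate 3 (52.3%, 49.2 to 55.4) overlapped one of replicate 1. In the other autosomes the shares were 42.9% and 55.1%. By chromosome, 40.4% and 54.4% of the peaks of replicates 1 and 3 had a partner on chromosome 4, 38.2% and 50.8% on chromosome 13, and 35.8% (28.8 to 43.3) and 45.9% (37.6 to 54.3) on chromosome 18, with Wilson intervals that overlap. Agreement was higher for wider peaks. In replicate 1 it was 19.3% for 5-kb peaks, 40.8% for those of 6 to 9 kb, 79.9% for those of 10 to 19 kb, and 12 of 12 for those of 20 kb or more. Replicate 3 gave 33.2%, 60.3%, 85.5% and 2 of 2. A wider peak has more room to overlap, and this was not separated from the widths themselves. Peaks without a partner lay at a median distance of 68 kb (replicate 1) and 47 kb (replicate 3) from the nearest peak of the other library, with 60.2% and 69.6% of them within 100 kb and the farthest at 3371 and 10263 kb. How near they would lie by their density alone was not tested. Between the siNeg libraries 3 of 41 and 3 of 18 peaks overlapped.

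**Figure D5:**
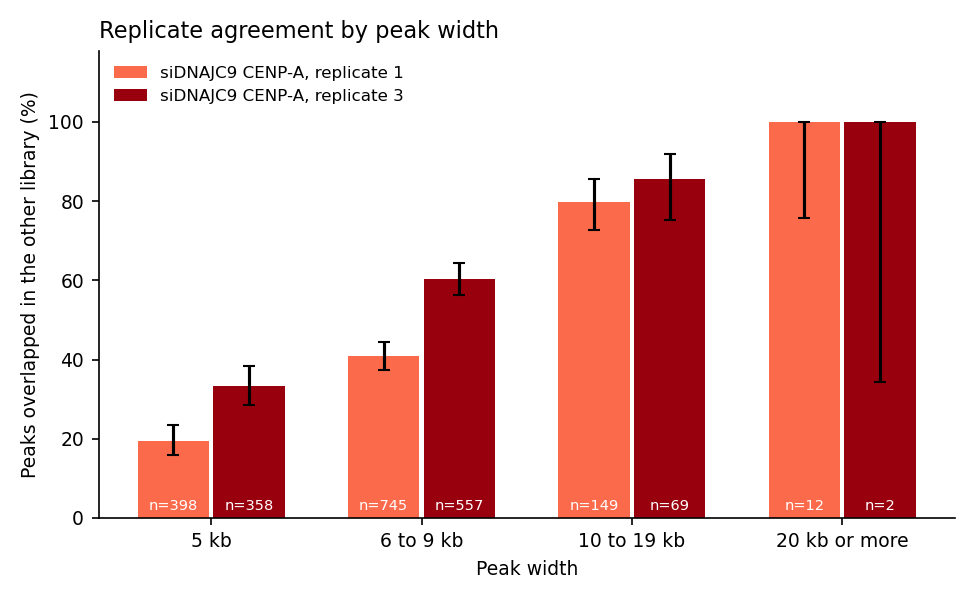
Share of siDNAJC9 CENP-A peaks that overlap a peak of the other siDNAJC9 library by at least 1 bp (vertical axis, %) by peak width (horizontal axis), with 95% Wilson intervals as error bars and the number of peaks in each bar. The share climbs from 19.3% and 33.2% at 5 kb to 79.9% and 85.5% at 10 to 19 kb.

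Regions with a peak in both siDNAJC9 libraries numbered 507 and spanned 5.00 Mb in all, with a median of 9 kb. Chromosome 4 had 323 of them (1.92 per Mb), chromosome 13 had 125 (1.42 per Mb) and chromosome 18 had 59 (1.06 per Mb). A siNeg CENP-A peak lay in 7 of the 507 and a siDNAJC9 IgG peak in 20 (3.94%). The longest, chr4:160275001-160327000, was 1 peak of 52 kb in replicate 1 and 1 of 36 kb in replicate 3. It was followed on chromosome 4 by chr4:153440001-153472000 and chr4:180105001-180137000, each spanning 32 kb. On chromosome 13 the longest were chr13:33559001-33582000, 23 kb, and chr13:34685001-34704000 and chr13:62644001-62663000, 19 kb each. On chromosome 18 they were chr18:55685001-55720000, 35 kb, and chr18:27849001-27866000 and chr18:44777001-44794000, 17 kb each. None of these 9 had a siNeg CENP-A or siNeg IgG peak, and only chr13:33559001-33582000 had a siDNAJC9 IgG peak, of which 6 kb lay in it.

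The siNeg peaks themselves were few and mostly seen once. The 3 that both siNeg libraries shared started at the same kb in each, at chr4:12615001-12623000 (to 12624000 in replicate 3), chr4:81345001-81354000 and chr18:48040001-48049000. No siDNAJC9 CENP-A peak overlapped any of the 3, and the one on chromosome 18 overlapped a siNeg IgG peak. Their bins were the 3 with the highest siNeg means, 8.5, 9 and 9 kb, and siDNAJC9 peaks elsewhere in these bins covered 10 and 24, 58 and 45, and 20 and 29 kb in replicates 1 and 3. The next 2 bins by siNeg mean were those from 145 to 146 Mb and from 22 to 23 Mb of chromosome 4, at 6 and 5.5 kb. Of the siNeg peaks, 10 of 41 in replicate 1 and 3 of 18 in replicate 3 overlapped a peak of siDNAJC9 replicate 1, and 5 of 41 and 2 of 18 overlapped one of siDNAJC9 replicate 3. In the other autosomes these were 69 of 332 and 22 of 87, and 59 of 332 and 17 of 87. Whether the shares differ was not tested.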

How the data were processed

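The authors trimmed reads, aligned them to T2T-CHM13v2.0, removed duplicates and called broad peaks in each library with GoPeaks, using an E. coli spike-in, per their methods. The submitters' processing notes name bcl2fastq and Bowtie. According to the file names, the background for calling was 1 further IgG library per siRNA. The deposited values are 1 start and 1 end per peak, a position and no score or count, so the read-count test of the study was not used here. Depth is known only as the authors' range of total reads per sample, not per library. Positions are given counting from 1.

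Lists were read in Python 3.11.15 with NumPy 2.4.6 and SciPy 1.17.1. Libraries were the replicates. Single values were compared by exact two-sided permutation tests. Bins of 1 Mb on chromosomes 1 to 22 and X, at the same distances, with at least 0.5 Mb eligible and over 0 kb in any CENP-A list, entered a limma fit (version 3.58.1, R 4.3.3) of log2(kb + 1), with Benjamini-Hochberg adjustment over 2165 bins. The fit and helpers were tested on simulated data. Intervals of shares are 95% Wilson intervals and reflect counting error alone.

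Named regions were, per arm, the densest siDNAJC9 bin and the longest stretch without a siDNAJC9 peak, the 10 bins with the largest difference past the threshold and any lower bin, the 3 widest regions per chromosome found in both siDNAJC9 libraries, the siNeg peaks found in both siNeg libraries, and the 5 bins with the highest siNeg means. Other groups and runs of bins were chosen after their values were seen. Genes of the rule could not be placed without an annotation of the build. Members and rules were chosen with earlier results of these data known. Alternatives varied the window, distances, least width, IgG overlap, joining, pseudocount, filter, scaling, bin size, unit, replicates and block.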

Additional observations from a re-analysis of the deposited data

Results flagged for a closer look

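The IgG lists, which enter no comparison between siRNAs, held 457 peaks (siNeg) and 381 peaks (siDNAJC9) in the same stretches of chromosomes 4, 13 and 18, more than the 41 and 18 peaks of the siNeg CENP-A lists. They were drawn out because a control antibody gave more peaks than CENP-A in the control cells. With 1 IgG library per siRNA there is no replicate of either value, and its cause was not tested.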

How the results depend on the processing

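The log2 ratio of siDNAJC9 over siNeg stayed positive under all alternatives tried, from 4.99 to 6.29 for peak number and from 5.31 to 6.40 for covered length. Number and length gave 4.99 and 5.31 when replicate 3 was left out and 5.78 and 5.92 when replicate 1 was. Peaks of 7 kb or more gave 6.29 and 6.40. Replicate numbers were not shown to pair libraries (correlation of deviations 0.00760 over 311 bins). The replicate block gave 5.38 and 5.61, a width difference of 1 kb (added after seeing the data) and 219 higher bins against 210. The number of higher bins was 316 with 0.5-Mb bins and 122 with 2-Mb bins, for which more and fewer bins were tested, and from 173 to 220 when 1 library was left out. Without a siDNAJC9 library the spread rests on siNeg bins that are mostly at 0. Scaling to the same total gave 198 higher and 5 lower bins. With 0.5-Mb bins, or without either siNeg library, 1 bin was lower. The 10 named bins stayed past the threshold in the 8 alternatives that keep 1-Mb bins and both siDNAJC9 libraries. All 10 were at 0 kb in both siNeg libraries, which the ranking favours, so this stability is partly set by their choice. Without a siDNAJC9 library these bins, at 0 kb in both siNeg libraries, have no residual spread, so those fits say nothing of their stability. The width difference was -0.5 kb with peaks of 7 kb or more only, 0 kb without replicate 1 and 2 kb without replicate 3. The siDNAJC9 minus siNeg difference in the log2 ratio of density to other autosomes, -0.23 as reported, was -0.64 without replicate 1, 0.18 without replicate 3, -0.999 (exact permutation p = 0.333) with peaks of 7 kb or more only and -0.46 without chromosome 10. Requiring 50% reciprocal overlap, agreement fell to 35.6% for replicate 1 and 47.1% for replicate 3. Among peaks of 7 kb or more these shares were 38.9% and 57.6%. Variance over mean was 2.34 and 2.17 in 0.5-Mb bins, 3.81 and 3.28 in 2-Mb bins, and 2.64 and 2.52 after joining. The causes of these shifts were not tested. With 2 libraries per group and no depth known per library, a region called in 1 library only cannot be told from one missed in the other.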

Other observations

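Peaks of chromosomes 4, 13 and 18 that the distances left out are given as counts. The centromeric windows held 52 and 39 CENP-A peaks in siNeg replicates 1 and 3, and 33 and 27 in siDNAJC9 replicates 1 and 3. The windows were placed where siNeg replicate 1 had its greatest peak length, which favours the siNeg counts. A count of peaks is also not a length, so these values do not measure a change of centromeric CENP-A. Within 5 Mb of the windows there were 12 and 15 siNeg peaks and 98 and 83 siDNAJC9 peaks. Within 5 Mb of the tips there were 2 and 1 siNeg peaks and 53 and 41 siDNAJC9 peaks. The siDNAJC9 IgG list had 116 peaks within 5 Mb of the tips, where the siNeg IgG list had 25, so in the tips the siDNAJC9 IgG list was longer than either siDNAJC9 CENP-A list. The interior stretches held 381 and 457 peaks of these IgG lists.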
